A study of Mus musculus with 10 samples.

Results

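The 10 genes described here are Dmrt1, Sox9, Sox8, Sox10, Fgf9, Ptgds, Aard, Cldn11, Hsd17b3 and Rhox5. They were chosen as genes of the testis pathway that makes or marks Sertoli cells, the supporting cells of the seminiferous tubule. They were found by gene symbol among the 24306 genes of the deposited count and FPKM tables, and all 10 were present.

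The study measured polyA RNA in whole mouse ovary at an age of 6 weeks, in mice of mixed C57BL/6 and 129 strain. All 10 libraries carried floxed alleles (f/f) of Rara, Rarb and Rarg, which encode the 3 nuclear receptors for retinoic acid. Controls (n = 5) were Dmrt1 +/+ and lacked Sf1-Cre. Rar mutants (n = 3) were also Dmrt1 +/+ but carried Sf1-Cre, in which regulatory sequence of Nr5a1 (also called Sf1) drives the recombinase in the gonad's somatic cells. The Dmrt1 het Rar mutants (n = 2) had Sf1-Cre together with 1 floxed copy of Dmrt1 (Dmrt1 fl/+). The whole gonad was used for RNA, so oocytes and other cells without the Cre contributed too, and cells that escaped deletion cannot be told apart from the rest. The labels do not say whether each library came from 1 animal or from a pool, so the p-values below measure only the spread between these libraries. The title of the series sets the question of whether the somatic ovary needs retinoic acid signaling, and these genes show whether testis genes were expressed when the receptors were deleted.

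In the fetal testis, Sry switches on Sox9, and the SOX9 protein, with FGF9 and prostaglandin D2 as secreted signals, directs supporting cells to become Sertoli cells. After birth, DMRT1 keeps Sertoli cells in that state by holding down ovarian genes, and in the ovary FOXL2 holds down Sox9 in granulosa cells. Granulosa and Sertoli cells arise from the same precursors, and retinoic acid signaling has been linked to the conversion of Sertoli cells that lack DMRT1 toward granulosa-like cells.

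Total counts ran from 21064856 to 25920131 per library, and a count of 0 allows up to 3 counts (0.116 to 0.142 CPM, counts scaled to the library total), an allowance that covers counting error only. Granulosa cell and oocyte markers were present in every library, with summed levels of 1155 to 3014 FPKM and 82.6 to 288.2 FPKM. FPKM is the number of fragments counted for a gene, scaled to transcript length and library size, which allows levels of different genes to be compared. Markers of sperm-forming cells summed to 0.783 to 2.67 FPKM, with Tnp1 at 0 counts in all 10 libraries. Rar mutants 2 and 3 stood apart for adrenal cortex markers, which summed to 207.7 and 210.0 FPKM there and to 0.434 to 1.39 FPKM in the other 8 libraries. Akr1b7 made up 191.3 and 205.8 FPKM of these 2 sums, Cyp11b1 15.6 and 4 FPKM and Cyp11b2 0.631 and 0.213 FPKM. Cyp21a1 (0.019 and 0 FPKM) and Mc2r (0.105 and 0.028 FPKM) were not above the control range there. The same 2 libraries had the highest sums of erythroid markers, 2223 and 3100 FPKM, against 325.0 to 1976 FPKM elsewhere. Sample titles carry a number, and 4 libraries have a number under 7800, namely both Dmrt1 het Rar mutants, Rar mutant 1 and control 1. With the groups as terms, lower and higher title numbers differed in 2414 of 20570 genes (edgeR adjusted p under 0.05). The labels do not say what the number means, and both Dmrt1 het Rar mutants fall on 1 side of it. Their group term takes up their difference. The title-number term, here and below, thus rests on control 1 and Rar mutant 1 against the other libraries of their groups.

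In control ovaries the 10 genes differed widely in level. Aard was highest at 11.3 ± 5.25 FPKM (SD, n = 5), followed by Cldn11 at 3.67 ± 1.77 FPKM and Ptgds at 3.07 ± 0.384 FPKM. Rhox5 (0.827 ± 0.128 FPKM), Sox9 (0.571 ± 0.133 FPKM), Sox8 (0.536 ± 0.0774 FPKM), Fgf9 (0.416 ± 0.106 FPKM) and Hsd17b3 (0.363 ± 0.197 FPKM) formed a lower set. Sox10 (0.0152 ± 0.0107 FPKM) and Dmrt1 (0 FPKM) were at or near 0. The ranges over controls of neighbours in this order did not overlap between Aard and Cldn11, between Ptgds and Rhox5 or between Hsd17b3 and Sox10, whereas those of all the other neighbours did. For comparison, Amh, a hormone gene shared by Sertoli and granulosa cells, stood at 87.5 ± 37.0 FPKM in the same controls.

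**Figure D1:**
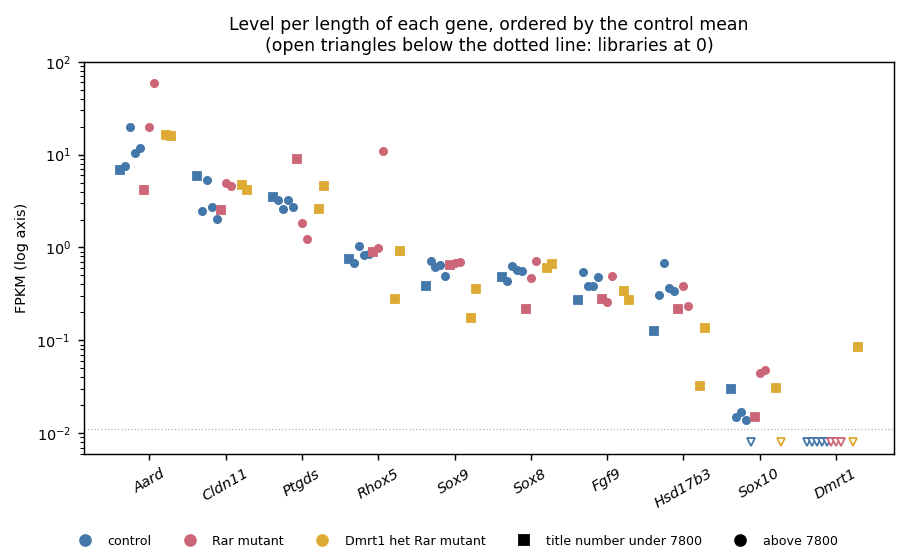
Level of each of the 10 genes in FPKM (log axis) in each library, ordered by the control mean. Colour gives the group, squares mark title numbers under 7800, and open triangles mark libraries at 0. Aard lies highest, at 4.15 to 58.8 FPKM, and Dmrt1 is at 0 in 9 of the 10 libraries.

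Each kind of mutant ovary was compared with controls, alone and pooled, and the 2 kinds were compared with each other. Of the 10 genes, 8 passed the filter on low counts, and Dmrt1 and Sox10 did not. The counts were tested with the quasi-likelihood test of edgeR, with a Benjamini-Hochberg adjusted p under 0.05, taken over all genes tested, as the threshold for a call. In Rar mutants against controls, 0 of the 8 genes were called and 1 had an unadjusted p under 0.05, where 0.00972% of all 20570 tested genes were called and 9.45% had such a p. In Dmrt1 het Rar mutants against controls, 0 of 8 were called and 2 had an unadjusted p under 0.05, against 0.0194% and 17.3% of all genes. Between Dmrt1 het Rar mutants and Rar mutants, 0 of 8 were called and 2 had an unadjusted p under 0.05, against 0% and 16.9% of all genes. With all 5 Rar-deleted ovaries pooled against controls, edgeR called 0 of 8 and 0 had an unadjusted p under 0.05, against 0.111% and 8.47% of the 18954 genes tested there. DESeq2, which left some of these genes without an adjusted p, called 0 in each of these comparisons except between the 2 kinds of mutant ovary. There it called 1, Sox9, among 626 genes called in all. In the other comparisons DESeq2 called 372 genes in Rar mutants, 329 in Dmrt1 het Rar mutants and 180 pooled. Its calls below thus stand beside many more calls than those of edgeR. The shares of all genes called or with an unadjusted p under 0.05, given beside the gene lists below, are those of edgeR. No such share is given for the calls of DESeq2. With limma on log2(FPKM + 0.1), 0 of the 8 were called in all 4. These comparisons share libraries, so their values are given side by side and are not independent of each other. The median log2 fold change of the 8 genes was 0.18 in Rar mutants and -0.09 in Dmrt1 het Rar mutants, where the medians of all genes tested were both -0.02, and -0.46 between the mutants, where that of all genes was -0.01.

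**Figure D2:**
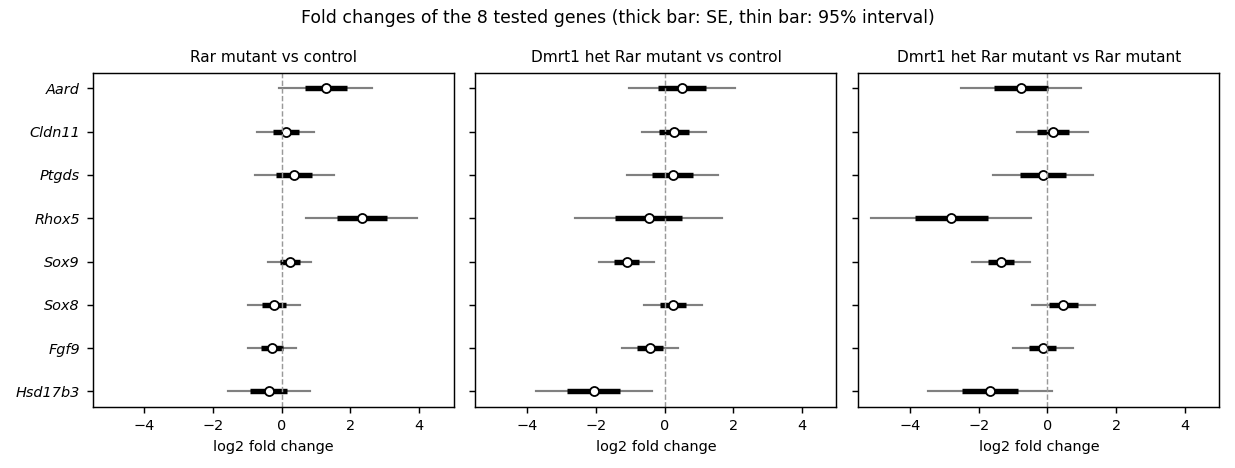
Log2 fold change of the 8 tested genes in 3 comparisons, with the SE as a thick bar and the 95% interval as a thin bar. The intervals that leave out 0 are those of Rhox5 in Rar mutants, of Sox9 and Hsd17b3 in Dmrt1 het Rar mutants, and of Sox9 and Rhox5 between the mutants; none of these passed the adjusted threshold in edgeR.

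Dmrt1 (ENSMUSG00000024837, GRCm38 chromosome 19, 25505618 to 25604329), the DM-domain factor that maintains Sertoli cells, had 0 counts in all 5 controls, all 3 Rar mutants and Dmrt1 het Rar mutant 1. The single exception was Dmrt1 het Rar mutant 2, with 5 counts (0.237 CPM, exact 95% Poisson interval 0.0771 to 0.554 CPM). The only reads of the gene were thus in a library with a floxed Dmrt1 allele. At this depth a loss of Dmrt1 transcript from that allele was not detectable, since the controls were already at 0, and a count over the whole gene does not show which exons the reads came from. Other genes of the Dmrt family had few counts. Dmrta1, at 0.824 ± 0.254 FPKM in controls (SD, n = 5), had 55 to 135 counts per library, Dmrtb1 3 to 19, Dmrtc1a 4 to 14, Dmrta2 1 to 12 and Dmrt2 0 to 3. Of the 4 tested (Dmrta1, Dmrta2, Dmrtb1 and Dmrtc1a), edgeR called 0 in each of the 3 comparisons of groups, and 0 had an unadjusted p under 0.05; DESeq2 called 0 in each, but gave an adjusted p to all 4 only in Rar mutants against controls and to 1 in the other 2 comparisons. Dmrt3 and Dmrtc2 were not analysed here.

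Sox9 (ENSMUSG00000000567, chromosome 11, 112782224 to 112787760), the central testis-determining target of Sry, had 39, 74, 56, 69 and 51 counts in controls 1 to 5. It had 68, 69 and 67 counts in the Rar mutants and 17 and 34 in the Dmrt1 het Rar mutants. The Rar mutants lay within the range of the controls and close to each other. The 2 Dmrt1 het Rar mutants lay below every other library. Per length, Sox9 stood at 0.678 ± 0.0276 FPKM in Rar mutants (SD, n = 3) and at 0.264 ± 0.131 FPKM in Dmrt1 het Rar mutants (SD, n = 2), beside the control mean of 0.571 FPKM.

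Sox9 in Rar mutants had a log2 fold change of 0.24 against controls (SE 0.28, 95% interval -0.39 to 0.87, edgeR adjusted p = 0.872). In Dmrt1 het Rar mutants it was -1.10 against controls (SE 0.36, 95% interval -1.89 to -0.32, edgeR adjusted p = 0.243). Against Rar mutants it was -1.35 (SE 0.38, edgeR adjusted p = 0.206), or 2.54-fold lower. DESeq2 gave -1.36 with an adjusted p of 0.0306 for that difference, the 1 call among these genes, and -1.11 with an adjusted p of 0.0859 against controls. Ranges of FPKM that do not overlap were common between groups this small: 14.3% of all tested genes lay lower in both Dmrt1 het Rar mutants than in every control, and 20.3% lower than in every Rar mutant. With a term for title numbers under 7800, Sox9 had a log2 fold change of -0.77 against controls (SE 0.41, edgeR adjusted p = 0.793) and -1.08 against Rar mutants (SE 0.40, edgeR adjusted p = 0.516). Without Dmrt1 het Rar mutant 1, the library with the fewest Sox9 counts, the values were -0.66 and -0.91, and without Dmrt1 het Rar mutant 2 they were -1.72 and -1.97.

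Marker lists of other tissues were set beside Sox9. The 8 markers of oviduct and surface epithelium summed to 29.4 and 36.1 FPKM in the Dmrt1 het Rar mutants, to 57.2 to 148.6 FPKM in controls and to 50.0 to 96.1 FPKM in Rar mutants. The lowest control and the lowest Rar mutant were control 1 and Rar mutant 1. The 4 libraries with title numbers under 7800 (29.4 to 57.2 FPKM) thus lay below the other 6 (78.7 to 148.6 FPKM). For Sox9 the Dmrt1 het Rar mutants (0.172 and 0.357 FPKM) and control 1 (0.382 FPKM) also lay below those 6 (0.492 to 0.713 FPKM). Rar mutant 1 (0.648 FPKM) lay within their range. In Dmrt1 het Rar mutants against controls, edgeR called 0 of the 8 markers and 7 had an unadjusted p under 0.05, against 17.3% of all genes. There DESeq2 called 4 lower (Krt19, Krt7, Epcam and Msln) and limma on log2(FPKM + 0.1) called 1 lower (Epcam). For Rar mutants against controls edgeR called 0 of the 8, and 5 had an unadjusted p under 0.05, against 9.45% of all genes. DESeq2 called Cdh1 and Epcam lower and Ovgp1 higher in that comparison. Between the mutants DESeq2 called 3 lower (Krt19, Krt7 and Epcam). For the title number edgeR called 4 of the 8 lower, against 4.02% of all genes. The Schwann cell and glia list did not move as a whole, with 4 of 5 tested markers negative and a median log2 fold change of -0.13 in Dmrt1 het Rar mutants against controls. S100b alone stood at 17.4 and 16.3 FPKM in those ovaries, against 1.56 to 8.96 FPKM in the other 8 libraries. The part of these tissues in the Sox9 values was not tested. In RNA from a whole ovary, fewer cells of a type and less RNA per cell cannot be told apart.

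**Figure D3:**
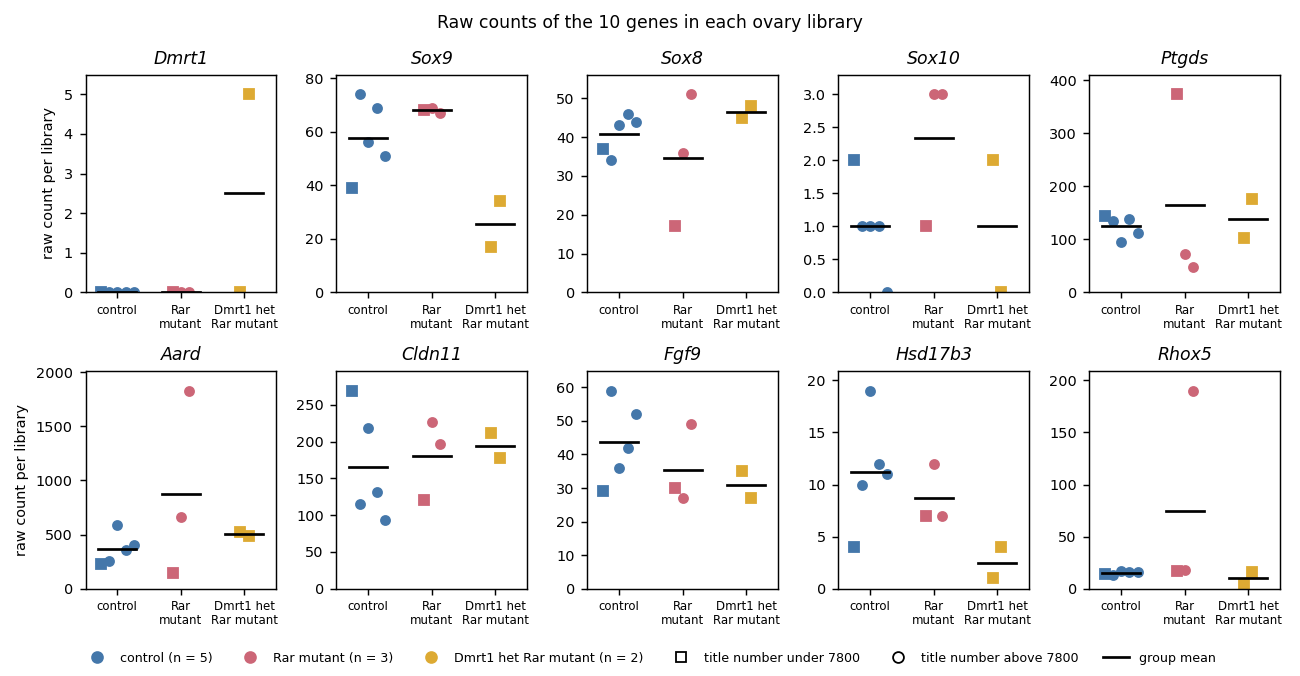
Raw counts of each of the 10 genes in each library, with the group mean as a bar, 1 panel a gene, each with its own axis from 0. The 2 Dmrt1 het Rar mutants are the lowest libraries for Sox9 (17 and 34 counts), Rar mutant 1 is the highest for Ptgds (373 counts), and Rar mutant 3 is the highest for Aard (1828 counts) and Rhox5 (190 counts).

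Sox8 (ENSMUSG00000024176, chromosome 17, 25565892 to 25570686), a relative of Sox9 that supports Sertoli cells alongside it, had 34 to 46 counts in controls. Its counts were 17, 36 and 51 in the Rar mutants and 45 and 48 in the Dmrt1 het Rar mutants. Rar mutant 1 was the lowest library, and the groups overlapped. Fold changes of Sox8 on the log2 scale were -0.22 in Rar mutants (SE 0.34, edgeR adjusted p = 0.910) and 0.25 in Dmrt1 het Rar mutants (SE 0.38, edgeR adjusted p = 0.745). Sox8 overlaps an antisense gene, 2810468N07Rik, with 334 counts over all libraries, and the strand setting of the counting is not given in the sources used here, so reads of the 2 genes may not be separated.

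Sox10 (ENSMUSG00000033006, chromosome 15, 79154908 to 79165240), the third SOX factor of this group and a marker of neural crest and glia, had 14 counts over all libraries. Controls 1 to 5 had 2, 1, 1, 1 and 0, the Rar mutants 1, 3 and 3, and the Dmrt1 het Rar mutants 2 and 0. No library exceeded 3 counts, so differences between groups were not detectable at this depth. The glial gene S100b was present in the same controls at 6.59 ± 3.07 FPKM (SD, n = 5), beside 0.0152 FPKM for Sox10.

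Fgf9 (ENSMUSG00000021974, chromosome 14, 58070547 to 58112720), which encodes the secreted growth factor that sustains Sox9 in the fetal testis, had 29, 59, 36, 42 and 52 counts in controls 1 to 5. The Rar mutants had 30, 27 and 49 counts and the Dmrt1 het Rar mutants 35 and 27. Rar mutant 2 and Dmrt1 het Rar mutant 2, at 27 counts each, lay just below the control range, the other mutant libraries lay within it, and the groups overlapped. On the log2 scale Fgf9 differed by -0.28 in Rar mutants (SE 0.31, 95% interval -0.98 to 0.41) and -0.43 in Dmrt1 het Rar mutants (SE 0.37, 95% interval -1.23 to 0.38). All 4 genes of FGF receptors were tested, and edgeR called 0 in each comparison of groups, with 0 at an unadjusted p under 0.05; DESeq2 called 0 as well. In Rar mutants their log2 fold changes ran from 0.24 for Fgfr4 to 0.37 for Fgfr3. Fgf9 overlaps an annotated pseudogene on the other strand.

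Ptgds (ENSMUSG00000015090, chromosome 2, 25466709 to 25470046), the prostaglandin D2 synthase made by Sertoli cells and also by macrophages and cells of the brain's lining, had 143, 134, 95, 138 and 112 counts in controls 1 to 5. The Rar mutants had 373, 73 and 47 counts and the Dmrt1 het Rar mutants 103 and 175. The 3 Rar mutants thus lay on both sides of the control range, with Rar mutant 1 above it and the other 2 below it. Their FPKM values were 8.92, 1.82 and 1.24, beside 2.62 to 3.51 in controls.

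The log2 fold change of Ptgds in Rar mutants was 0.37 (SE 0.52, 95% interval -0.78 to 1.53, edgeR adjusted p = 0.896). Without Rar mutant 1, which leaves the 2 libraries with high sums of adrenal cortex markers, it was -1.01 (SE 0.29, edgeR adjusted p = 0.124). In the 6 libraries with title numbers above 7800 alone it was -0.96 (SE 0.27, edgeR adjusted p = 0.158). With the groups as terms, title numbers under 7800 had a log2 difference of 1.47 for Ptgds (SE 0.46, edgeR adjusted p = 0.0640), where 11.7% of all genes were called and 0 of the 8 genes were. That difference rests on control 1 and Rar mutant 1, as given above. Of the other genes of prostaglandin D2 synthesis and reception, edgeR called 0 of 4 tested. An unadjusted p under 0.05 was found for 2 in Rar mutants and 1 in Dmrt1 het Rar mutants, against 9.45% and 17.3% of all genes. DESeq2 called 0 of the 2 to which it gave an adjusted p in each of these comparisons. The cyclooxygenase genes Ptgs2 and Ptgs1, which make the precursor, had log2 fold changes of 7.42 (SE 1.51, edgeR adjusted p = 0.105) and 2.74 (SE 0.74, edgeR adjusted p = 0.201) in Rar mutants. Counts of Ptgs2 were 4875 for Rar mutant 3, 98 for Rar mutant 2 and 3 to 32 for the other 8 libraries, so the library with the most Ptgs2 had the least Ptgds. Ptgs1 was high in Rar mutant 2 alone, at 1928 counts. It had 112 and 151 counts in Rar mutants 1 and 3 and 75 to 132 in controls.

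Cldn11 (ENSMUSG00000037625, chromosome 3, 31149920 to 31164324), a tight junction protein of the barrier between Sertoli cells, had 269, 115, 219, 131 and 94 counts in controls 1 to 5. The Rar mutants had 120, 227 and 196 counts and the Dmrt1 het Rar mutants 211 and 178. All mutant libraries lay within the control range. It had a log2 fold change of 0.12 in Rar mutants (SE 0.38, 95% interval -0.71 to 0.95) and 0.27 in Dmrt1 het Rar mutants (SE 0.43, 95% interval -0.67 to 1.21). Among 9 other genes of barrier junctions, edgeR called 0 in each comparison of groups. An unadjusted p under 0.05 was found for 4 in Rar mutants and 4 in Dmrt1 het Rar mutants, against 9.45% and 17.3% of all genes. DESeq2 called 2 of the 9 lower in Rar mutants (Cldn5 and Cgn) and 3 in Dmrt1 het Rar mutants (Cldn5, Cgn and Cldn3), and between the mutants it called Gja1 higher and Cldn1 and Cldn3 lower in Dmrt1 het Rar mutants. Cldn5, a claudin of endothelium and Sertoli cells, had 831 to 885 counts in controls and 392 to 587 in the 5 Rar-deleted libraries. These ranges did not overlap, and by FPKM 1.02% of tested genes lay lower in all Rar-deleted libraries than in all controls. Over all Rar-deleted ovaries it had a log2 fold change of -0.75 (SE 0.13, edgeR adjusted p = 0.0602). Cgn, which encodes the junction plaque protein cingulin, had 714 to 1356 counts in controls and 450 to 634 in Rar-deleted libraries (log2 fold change -0.96, SE 0.17, edgeR adjusted p = 0.0634).

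Aard (ENSMUSG00000068522, chromosome 15, 52040107 to 52045722), a gene of unknown function that marks fetal Sertoli cells, had 227, 253, 590, 358 and 403 counts in controls 1 to 5. The Rar mutants had 142, 660 and 1828 counts, and the Dmrt1 het Rar mutants 526 and 489. The Rar mutants held both the lowest and the highest library. Rar mutant 3 stood at 58.8 FPKM, 2.93 times the next library, Rar mutant 2 at 20.1 FPKM. The log2 fold change in Rar mutants was 1.28 (SE 0.61, 95% interval -0.07 to 2.62, edgeR adjusted p = 0.556), and 0.09 without Rar mutant 3 (SE 0.54, edgeR adjusted p = 0.989). Without Rar mutant 1 it was 1.79 (SE 0.42, edgeR adjusted p = 0.0681). In Dmrt1 het Rar mutants it was 0.51 (SE 0.70, edgeR adjusted p = 0.712).

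Hsd17b3 (ENSMUSG00000033122, chromosome 13, 64058266 to 64089230), the enzyme that completes testosterone synthesis in the testis, had 4, 10, 19, 12 and 11 counts in controls 1 to 5. The Rar mutants had 7, 12 and 7 counts and the Dmrt1 het Rar mutants 1 and 4. In FPKM both Dmrt1 het Rar mutants (0.032 and 0.135) lay below every Rar mutant (0.215 to 0.383), but Dmrt1 het Rar mutant 2 was not below control 1 (0.126). All 4 libraries with title numbers under 7800 (0.032 to 0.215 FPKM) lay below all 6 with higher numbers (0.236 to 0.673 FPKM), a split in that direction shown by 11.1% of tested genes. The log2 fold change in Dmrt1 het Rar mutants was -2.06 against controls (SE 0.77, edgeR adjusted p = 0.249), and -1.10 with a term for the title number (SE 0.87, edgeR adjusted p = 0.851). Exact 95% Poisson intervals of the counts were 0.0253 to 5.57 for 1 count and 1.09 to 10.2 for 4 counts.

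Among other 17beta-hydroxysteroid dehydrogenases, Hsd17b1 stood at 203.9 ± 51.2 FPKM and Hsd17b2 at 4.95 ± 1.04 FPKM in controls (SD, n = 5), beside 0.363 FPKM for Hsd17b3. Hsd17b1, which makes oestradiol in granulosa cells, had 3165 to 7740 counts, with a log2 fold change of -0.78 in Rar mutants (SE 0.22, edgeR adjusted p = 0.240). Hsd17b2, which inactivates oestradiol, had 152 to 291 counts in controls, 118, 64 and 25 in Rar mutants and 28 and 31 in Dmrt1 het Rar mutants. All 5 Rar-deleted libraries lay below all controls, as they did by FPKM for 1.02% of tested genes. Hsd17b2 had a log2 fold change of -1.77 in Rar mutants (SE 0.40, edgeR adjusted p = 0.134) and -2.91 in Dmrt1 het Rar mutants (SE 0.52, edgeR adjusted p = 0.156). Of the 8 genes in this family list (7 in the pooled comparison) edgeR called 0 in every comparison of groups. An unadjusted p under 0.05 was found for 3 in Rar mutants and 1 in Dmrt1 het Rar mutants, against 9.45% and 17.3% of all genes. DESeq2 called 1 in each, Hsd17b2, and 0 between the mutants. Of 6 Leydig cell genes, the testosterone-making cells of the testis, edgeR and DESeq2 called 0, with 1 such p from edgeR in Rar mutants (Star) and 0 in Dmrt1 het Rar mutants.

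Rhox5 (ENSMUSG00000095180, chromosome X, 37804842 to 37808876) encodes a homeobox factor that androgen induces in Sertoli cells and that granulosa cells also make. Its counts were 14, 13, 17, 16 and 16 in controls 1 to 5, 17, 18 and 190 in Rar mutants and 5 and 16 in Dmrt1 het Rar mutants. Rar mutant 3 held 59.0% of all counts of the gene, and the other 2 Rar mutants were within 1 count of the control range. In that library Rhox5 stood at 10.9 FPKM, 10.6 times the next highest value of 1.03 FPKM in control 3. The log2 fold change in Rar mutants was 2.33 (SE 0.73, 95% interval 0.72 to 3.95, edgeR adjusted p = 0.296), and 0.17 without Rar mutant 3 (SE 0.43, edgeR adjusted p = 0.971). In Dmrt1 het Rar mutants it was -0.46 against controls (SE 0.97, edgeR adjusted p = 0.816) and -2.80 against Rar mutants (SE 1.05, edgeR adjusted p = 0.251), the latter -0.62 without Rar mutant 3. DESeq2 gave Rhox5 no p in any comparison, and it gave Hsd17b3 no adjusted p in the 2 comparisons with Dmrt1 het Rar mutants.

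Rhox8, another gene of the Rhox cluster, is made by Sertoli and granulosa cells. It lies on the minus strand, and its nearer edge, the 3′ end, is 65.9 kb past the end of Rhox5. Its counts were 112, 235, 2953, 155 and 112 in controls 1 to 5, 358, 4578 and 27479 in Rar mutants and 167 and 311 in Dmrt1 het Rar mutants. Rar mutant 3 was highest for both genes, but Rar mutant 2 and control 3, with 4578 and 2953 counts of Rhox8, had 18 and 17 of Rhox5. The log2 fold change of Rhox8 in Rar mutants was 3.85 (SE 1.37, edgeR adjusted p = 0.370). Of the 2 Rhox genes other than Rhox5 that were tested, edgeR called 0. An unadjusted p under 0.05 was found for 1 in Rar mutants and 0 in Dmrt1 het Rar mutants, against 9.45% and 17.3% of all genes. DESeq2 called 0 of 2 and 0 of 1 to which it gave an adjusted p there. Star, the cholesterol carrier of steroid-making cells, had 150111 counts in Rar mutant 3 and 1784 to 25028 elsewhere. The 6 theca markers summed to 1830 FPKM there, of which Star made up 1582 FPKM, and to 226.7 to 563.5 FPKM in the other 9 libraries. Insl3, another theca marker, was lowest in that library at 0.209 FPKM, and 4 of the 6 markers had negative fold changes in Rar mutants. Sums of the adrenal cortex and erythroid markers were highest there too, as given above. The part of these markers in the Rhox5 and Aard values of that library was not tested. Etd, an X-linked gene of the Sertoli list, had 0 counts in all 10 libraries, and most other Rhox genes were not analysed here.

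**Figure D4:**
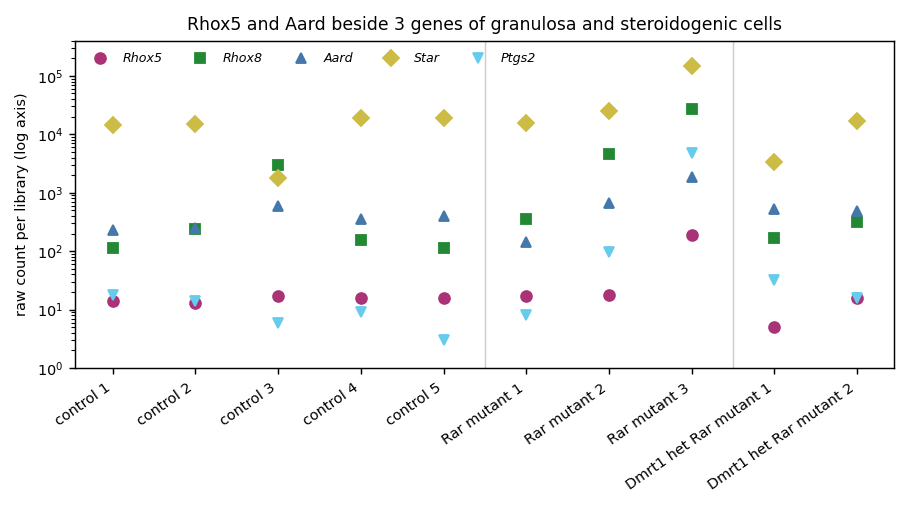
Raw counts (log axis) of Rhox5, Rhox8, Aard, Star and Ptgs2 in each of the 10 libraries. All 5 genes are highest in Rar mutant 3, with 190 counts of Rhox5, 27479 of Rhox8, 1828 of Aard, 150111 of Star and 4875 of Ptgs2.

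Rhox5 was the 1 gene of the 8 tested with a library past the limit of Dixon's test for an outlying value, so the sequence before its start is shown. RefSeq places that start 50.2 kb before the GENCODE start used for the position above, and the counts do not tell which start was used. The 250 bases before the RefSeq start, at chrX:37754358-37754607 on the plus strand of GRCm38.p6, lie outside the GENCODE gene and are given 5′ to 3′ with CCAAT on either strand in capitals.

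Rhox5 upstream: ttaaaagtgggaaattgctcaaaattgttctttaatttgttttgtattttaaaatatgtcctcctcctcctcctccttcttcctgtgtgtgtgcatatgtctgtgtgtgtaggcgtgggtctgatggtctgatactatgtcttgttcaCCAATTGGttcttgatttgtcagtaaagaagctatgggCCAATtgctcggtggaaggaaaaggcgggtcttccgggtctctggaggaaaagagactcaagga

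The window holds 3 CCAAT matches, of which the first 2 overlap on opposite strands, and 33.8% of 32851 RefSeq promoter windows of the same length hold at least 1. The hexamer AGGTCA, the core of retinoic acid response elements, was searched on both strands, with the direct repeats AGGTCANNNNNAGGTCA and AGGTCANNAGGTCA that contain it. None was found in the windows of the 6 genes with an entry (Ptgds, Cldn11, Hsd17b3, Fgf9, Sox8 and Rhox5). Only exact matches in 250 bases were searched, so sites of another sequence or position would be missed. AGGTCA occurs in 14.0% of all windows and each repeat in 0.00913%. Windows of Dmrt1, Sox9, Sox10 and Aard had no entry.

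The wider testis program was described with a list of 30 other Sertoli and testis determination genes, of which 28 were tested (26 in the pooled comparison). In each comparison of groups edgeR called 0 of them. An unadjusted p under 0.05 was found for 9 in Rar mutants, 6 in Dmrt1 het Rar mutants and 6 with all Rar-deleted ovaries pooled. Over all genes the shares with such a p were 9.45%, 17.3% and 8.47%. DESeq2 called 2 lower in Rar mutants (Nr0b1 and Gata1), 0 in Dmrt1 het Rar mutants and 2 lower pooled (Nr0b1 and Mmd2). Between the mutants 8 had an unadjusted p under 0.05 in edgeR, against 16.9% of all genes. DESeq2 there called 2 higher in Dmrt1 het Rar mutants (Fshr by 1.57 and Mro by 2.01 on the log2 scale) and Trf lower (-4.52). The median log2 fold change was -0.10 in Rar mutants and -0.11 in Dmrt1 het Rar mutants, with 20 and 15 of 28 negative. Nr0b1, an orphan receptor that can oppose Sox9 activation, had 156 to 268 counts in controls and 30 to 121 in the 5 Rar-deleted libraries. These ranges do not overlap, which by FPKM held in that direction for 1.02% of tested genes. In Rar mutants Nr0b1 had a log2 fold change of -1.70 (SE 0.37, edgeR adjusted p = 0.123), and DESeq2 gave -1.69 with an adjusted p of 0.00073. The authors' deposited table lists 185 genes for that comparison and holds 0 of the 10 genes described here. It gives Nr0b1 a log2 fold change of -1.24 and an adjusted p of 0.00170 from the authors' own test, whose fold changes may be scaled otherwise. Trf, the transferrin gene that Sertoli cells also express, had 466 and 737 counts in Rar mutants 2 and 3 and 12 to 124 elsewhere (log2 fold change 2.84 in Rar mutants, SE 0.73, edgeR adjusted p = 0.186). These are the 2 libraries with high sums of adrenal cortex and erythroid markers, whose part in the Trf values was not tested. The third gene by p was Gata1, at -1.27 (SE 0.36, edgeR adjusted p = 0.231). In Dmrt1 het Rar mutants the smallest p values were those of Nr5a1 (log2 fold change 0.88), Map3k4 (0.48) and Zfpm2 (0.72), each with an edgeR adjusted p of 0.243.

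Genes of ovarian somatic fate, which oppose the testis program, were set beside these. Of 14 tested, edgeR called 0 in each comparison of groups. An unadjusted p under 0.05 was found for 4 in Rar mutants and 2 in Dmrt1 het Rar mutants, against 9.45% and 17.3% of all genes. DESeq2 called Runx1 higher and Irx3 lower in Rar mutants, and Esr2 higher and Wnt4 lower in Dmrt1 het Rar mutants. Between the mutants 6 were at an unadjusted p under 0.05 in edgeR, against 16.9% of all genes. DESeq2 there called Esr2 higher (1.31) and Runx1 (-2.40) and Wnt4 (-1.74) lower on the log2 scale. The list had medians of -0.05 and -0.0041 (log2), with 8 and 7 of 14 negative. In Rar mutants the smallest p values belonged to Irx3 (log2 fold change -0.71, SE 0.15, edgeR adjusted p = 0.105), Runx1 (2.01, SE 0.49, edgeR adjusted p = 0.157) and Fst (-0.60, SE 0.22, edgeR adjusted p = 0.392). Runx1, a supporting cell factor of the fetal ovary, had 3243 and 5806 counts in Rar mutants 2 and 3 and 472 to 1486 elsewhere. Sums of the adrenal cortex and erythroid markers were highest in the same 2 libraries, and the part of these markers in the Runx1 values was not tested. Foxl2, which represses Sox9, had 1089 to 1578 counts in controls, 1450, 815 and 551 in Rar mutants and 1208 and 1255 in Dmrt1 het Rar mutants. Wnt4, a signal of ovarian fate, had 1376 to 3143 counts in controls and 1701 to 3281 in Rar mutants. It had 481 and 1097 counts in Dmrt1 het Rar mutants, with a log2 fold change of -1.50 (SE 0.43, edgeR adjusted p = 0.243). Both Dmrt1 het Rar mutants thus lay below every other library for Wnt4 as for Sox9, among the 14.3% and 20.3% of genes given above. Wnt4 also divided by title number, at 4.79 to 16.0 FPKM under 7800 and 21.4 to 33.0 FPKM above it, as 11.1% of genes did in that direction. Sox9 divided so except for Rar mutant 1 (0.648 FPKM).

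**Figure D5:**
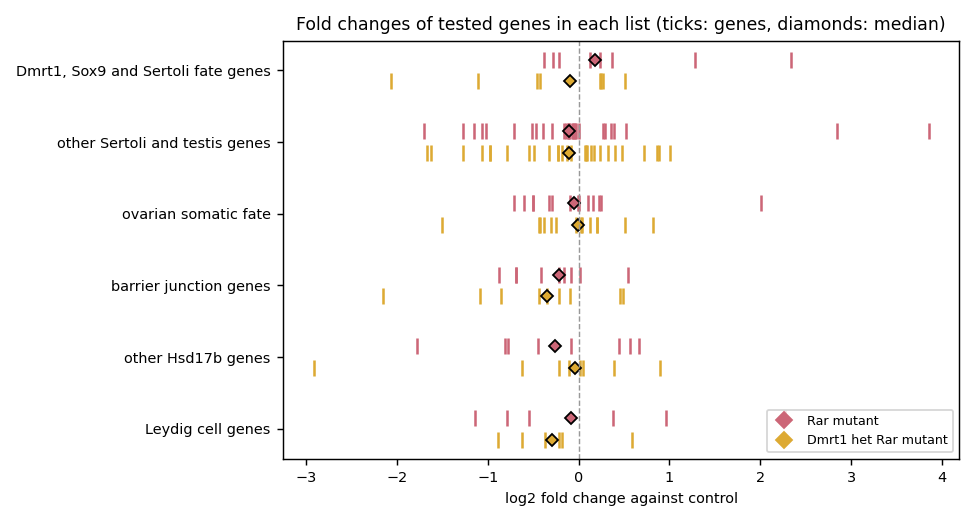
Log2 fold change against control of every tested gene in 6 gene lists, with Rar mutants and Dmrt1 het Rar mutants in separate rows; each tick is a gene and each diamond the median of the list. The medians run from -0.35 to 0.18, where those of all genes tested are both -0.02. Those of the 8 tested of the 10 genes are 0.18 and -0.09. Those of the other Sertoli and testis genes are -0.10 and -0.11, and those of the barrier junction genes -0.21 and -0.35.

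Across the 10 libraries, the 8 genes did not move as 1 group. As a description, Pearson's r of log2 CPM between pairs of them ran from -0.85 for Ptgds and Aard to 0.84 for Sox9 and Hsd17b3, over libraries that share groups and title numbers. Aard and Rhox5 had an r of 0.66, and of -0.03 without Rar mutant 3. The gene most like Sox9 was the predicted gene Gm4995 (r 0.97, Spearman's rho 0.96, 145 counts in all), followed by the collagen gene Col1a2 (r 0.95, rho 0.88) and Wnt4 (r 0.95, rho 0.92). For Ptgds the list was led by Ppt1, a lysosomal enzyme (r 0.94, rho 0.92), and held Csf1r, the macrophage growth factor receptor (r 0.91, rho 0.83). For Sox8 it was led by Ctnna3 (r 0.95, rho 0.94), for Aard by Gm6382 (r 0.96, rho 0.90), for Cldn11 by Pvt1 (r 0.93, rho 0.87) and for Fgf9 by Tmem132c (r 0.90, rho 0.88). For Rhox5 the most alike were ENSMUSG00000097306 (r 0.98, rho 0.81), Gm13889 (r 0.97, rho 0.68) and Mob4 (r 0.94, rho 0.71), where 1 library sets the r.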

How the data were processed

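Per the labels' protocols, whole gonads were homogenised in Trizol and polyA libraries were made with a stranded kit. Per the submitters' processing notes, Trimmomatic 0.32, STAR 2.4.2a, SAMtools 1.0 and DESeq2 1.12.3 were used with GRCm38 (mm10); the counting tool, its strand setting and the annotation are not given in the sources used here. The authors deposited raw counts for each Ensembl gene and FPKM values scaled between libraries by the authors. The authors' deposited table of differential expression has several kinds of column, per the file headers. One is the mean over libraries of normalised counts, a signal, as deposited. Fold changes and their errors are log2 values in the deposited table, and the Wald score, the p-value and the BH adjusted p-value come from the authors' test. Gene positions came from GENCODE M21, which matched 24038 of the 24306 identifiers, and promoter windows from RefSeq on GRCm38.p6.

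Counts were tested in R 4.3.3 with edgeR 4.0.16 (TMM, filterByExpr, quasi-likelihood fit with robust dispersion, two-sided), in a fit of the 3 groups (20570 genes) and a fit of all Rar-deleted against control (18954 genes). The SE of an edgeR fold change is its size divided by the square root of F, and intervals are 95%. Alternatives were DESeq2 1.42.0, RLE size factors, no low-count filter, a replicate block, a title-number term, limma 3.58.1 on log2(FPKM + 0.1) and log2(FPKM + 1), the groups alone, the title numbers above 7800 alone, and leaving out each of the 10 libraries. The scripts were tested on simulated data. A marker of the Schwann cell and glia list is not reported here. The 10 genes and the other lists were chosen with earlier results of these data known. Those printed are a part of the genes the rule names. From each list it named every called gene or else up to 3 genes with the smallest p, and genes at 0 in all libraries. For each of the 10 genes with a mean of at least 1 CPM it named up to 3 genes of highest Pearson's r. Foxl2, Amh, S100b, Insl3, the genes named for a DESeq2 or limma call, Wnt4 in the Sox9 comparison, and the counts set beside Rar mutant 3 were chosen after their values were seen. The series' design text gives 5 replicates of 2 genotypes, which matches the labels only when both mutant groups are pooled.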

Additional observations from a re-analysis of the deposited data

Results flagged for a closer look

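Of 16 groups of 4 or more libraries tested for a library far from the others (each of the 8 tested genes in controls and in all Rar-deleted ovaries), 1 was flagged, and chance flags about 1 in 20. Rhox5 in Rar mutant 3 stood at 10.925 FPKM among the 5 Rar-deleted libraries, whose other values were 0.277 to 0.98 FPKM. The gap to the nearest library was 0.934 of the whole range, where Dixon's 95% critical value for 5 samples is 0.71. Counts of Rhox5 in that library were 190, and 5 to 18 in the other 4.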

How the results depend on the processing

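Of the fold changes of the 8 tested genes, 65 of 72 kept their direction under other settings in Rar mutants against controls, 59 of 64 in Dmrt1 het Rar mutants against controls, 56 of 63 between the mutants and 49 of 56 in the pooled comparison. The 1 that became a call was Sox9 between the mutants in DESeq2 (adjusted p 0.0306), which raised the calls among the 10 genes from 0 to 1 there. Leaving out any 1 library made no call among the 8 genes. Counts of all genes called moved more. In the order Rar mutant, Dmrt1 het Rar mutant, between the mutants and pooled, edgeR called 2, 4, 0 and 21 and DESeq2 372, 329, 626 and 180. Leaving out each library in turn gave 1 to 384, 0 to 364, 0 to 335 and 5 to 52; the highest values came without Rar mutant 1, control 1, Rar mutant 1 and control 1. With the title-number term 85 were called in Rar mutants, 1 in Dmrt1 het Rar mutants and 40 pooled, and title numbers above 7800 alone gave 142 in Rar mutants. In Rar mutants limma on log2(FPKM + 0.1) and the 2 groups alone each gave 1, and limma on log2(FPKM + 1) gave 2 pooled. Where a cause is not named, the cause was not tested.

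Whether shared replicate numbers pair the libraries was not settled. Correlations of deviations from group means ran from -0.087 to 0.435 over 7 same-numbered pairs, with 2 over 0.1. Over 24 differently numbered pairs they ran from -0.397 to 0.242, with 5 over 0.1. Deviations of the 2 Dmrt1 het Rar mutants mirror each other, so pairs with them cannot show pairing. With the replicate block 0 genes were called in Dmrt1 het Rar mutants and 0 pooled. The block turned the log2 fold change of Ptgds (-0.012) and Cldn11 (-0.15) in Rar mutants, Ptgds (-0.073) and Rhox5 (0.21) in Dmrt1 het Rar mutants, Aard (0.46) and Fgf9 (0.044) between the mutants, and Sox8 (0.098), Ptgds (-0.038) and Cldn11 (-0.052) pooled.

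None of the other reversed values was called. The title-number term turned Ptgds (-0.30) in Rar mutants, Ptgds (-0.99), Fgf9 (0.065) and Rhox5 (0.61) in Dmrt1 het Rar mutants, Aard (0.80), Cldn11 (-0.014) and Fgf9 (0.26) between the mutants, and Sox9 (0.12), Sox8 (0.074) and Ptgds (-0.41) pooled. On log2(FPKM + 0.1) limma turned Ptgds in Rar mutants (-0.14), between the mutants (0.33) and pooled (-0.014), and on log2(FPKM + 1) in Rar mutants (-0.030) and between the mutants (0.18). Title numbers above 7800 alone turned Sox8 (0.094) and Ptgds (-0.96) in Rar mutants. Leaving out 1 library, log2 fold changes that turned at least once ran from -1.01 to 0.80 (Ptgds), -0.65 to 0.13 (Sox8) and -0.072 to 0.37 (Cldn11) in Rar mutants, and from -0.23 to 0.60 (Ptgds) and -1.54 to 0.17 (Rhox5) in Dmrt1 het Rar mutants. Between the mutants they ran from -1.28 to 0.43 (Aard), -0.096 to 0.34 (Cldn11), -0.31 to 0.22 (Fgf9) and -0.62 to 1.25 (Ptgds), and pooled from -0.25 to 0.55 (Ptgds), -0.11 to 2.02 (Rhox5), -0.13 to 0.19 (Sox8) and -0.29 to 0.065 (Sox9). Where 1 Dmrt1 het Rar mutant remained, its spread was assumed to be that of the other groups.

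Depth limits what can be said of Dmrt1 and Sox10, at 0 to 5 counts per library, of Hsd17b3, at 1 to 19, and of Rhox5, at 5 to 18 in 9 of the 10 libraries.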
